A study of Mus musculus with 40 samples.

Results

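The SusC and SusD genes of the cecal bacterium tabulated as D. muris, and the gene glcA of the same genome, were followed in mice fed powdered broccoli. Members were all features of the D. muris and X. muris tables whose symbol, without a trailing copy number, was susC, susD, susE, susF or susG, plus glcA in D. muris. This gave 6 genes among the 18455 features of the 6 tables: susC_1, susC_2, susC_3, susC_4, susD and glcA, all in D. muris. No feature was named susE, susF or susG, and X. muris, where 18.4% of the features carried a symbol, held 0 members. The labels write both genera as initials, and they are kept so here.

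All mice were C57BL/6, were 3 weeks old at the start and ate the Total Western Diet, a rodent diet built on Western nutrient intakes, for 6 weeks. Broccoli powder was then part of that diet for 3 weeks, at 0.5% in one group, 1% in another and 2.5% in the last, and the 0% group went without. RNA from the cecal contents of 10 mice per diet was depleted of ribosomal RNA and sequenced, and the values are raw counts per feature. Nothing in the labels ties libraries to cages, so whether mice shared cages is not known here. The tests treat libraries as independent and set each difference against the spread between libraries.

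In Bacteroides thetaiotaomicron, where the starch utilization system was worked out, SusC is a channel of the outer membrane that imports oligosaccharides with energy from the TonB complex. SusD is a lipoprotein that sits on SusC like a lid and binds the glycan at the cell surface. SusE and SusF are further surface binding proteins, SusG is a surface amylase, and SusB is an alpha-glucosidase of the periplasm. Annotation gives the names susC and susD to whole families of such pairs, which take up many different glycans, so the name does not say which glycan a copy serves. The symbol glcA denotes glycolate permease in Escherichia coli and a beta-1,3-glucanase in Bacillus circulans. The tables give no product for it, so its role in D. muris is not known here.

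The genes susC_3 and glcA were chosen by their level relative to the genome, which was lower with broccoli in these same libraries. Their differences are therefore given as a description, with no test. The other 4 members entered by name. Levels relative to the genome are CPM, counts per 1000000 counts on the tested features of D. muris, adjusted by TMM factors, in the 37 libraries with at least 10000 D. muris counts. The D. muris total had a median of 28584 in the 9 such libraries at 0%, 42962 in 9 at 0.5%, 53978 in 10 at 1% and 93134 in 9 at 2.5%. At 2.5% these totals ran from 62480 to 172785, above every total at 0% (13287 to 40647). Depth and diet therefore moved together and cannot be told apart. Over the 6 tables together, a library held between 236483 and 5107249 counts.

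Relative to the genome, susC_3 was about 7-fold lower at 2.5% than at 0% and had an intermediate level at the doses between. The lowest, median and highest CPM of susC_3 were 2898, 14191 and 19233 at 0%, and 1558, 4006 and 5583 at 0.5%. They were 1355, 2623 and 10431 at 1%, and 755.4, 1818 and 2913 at 2.5%. The groups at 2.5% and 0% overlapped only through 0% replicate 10, at 2898 CPM, since the other 8 libraries at 0% ran from 11006 to 19233 and 8 of 9 libraries at 2.5% lay below 2898. Means were 13356 ± 4737 at 0%, 3893 ± 1373 at 0.5%, 3583 ± 2855 at 1% and 1908 ± 745.4 at 2.5% (SD, n = 9, 9, 10 and 9). The log2 differences from 0% were -1.78 ± 0.33 at 0.5%, -1.90 ± 0.32 at 1% and -2.81 ± 0.34 at 2.5% (SE). All broccoli libraries with at least 10000 D. muris counts lay below the 0% mean, 9 of 9, 10 of 10 and 9 of 9. The libraries under that minimum are given further below.

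The order of the group levels of susC_3 was 0%, 0.5%, 1% and 2.5%, from high to low. The 1% and 0.5% groups overlapped almost wholly, with a log2 difference of -0.12 ± 0.31 for 1% against 0.5%. The 2.5% group lay lower than the 1% group by a log2 difference of -0.91 ± 0.31 and lower than the 0.5% group by -1.02 ± 0.32, again with overlap. At 1%, replicate 4 at 10431 CPM stood nearest to the upper 8 libraries at 0%.

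For glcA the level was about 10.7-fold lower at 2.5% than at 0%. The lowest, median and highest CPM of glcA were 212.0, 1834 and 2653 at 0%, and 84.8, 378.0 and 2017 at 0.5%. They were 58.2, 168.5 and 784.1 at 1%, and 34.6, 161.5 and 255.2 at 2.5%. The lowest 0% library was again replicate 10, and 7 of 9 libraries at 2.5% lay below it. The log2 differences from 0% were -1.66 ± 0.46 at 0.5%, -2.89 ± 0.47 at 1% and -3.42 ± 0.48 at 2.5% (SE). With the genome total as covariate the difference at 2.5% was -2.24, close to the -2.19 of susC_3 in the same fit. The 2.5% and 1% groups overlapped, with a log2 difference of -0.53 ± 0.48. Between 0.5% and the higher doses the differences were -1.23 ± 0.48 for 1% and -1.76 ± 0.48 for 2.5%, with overlap in both. These levels rest on few reads, since a library held a median of 26 glcA counts at 0% and 9 at 2.5%.

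**Figure D1:**
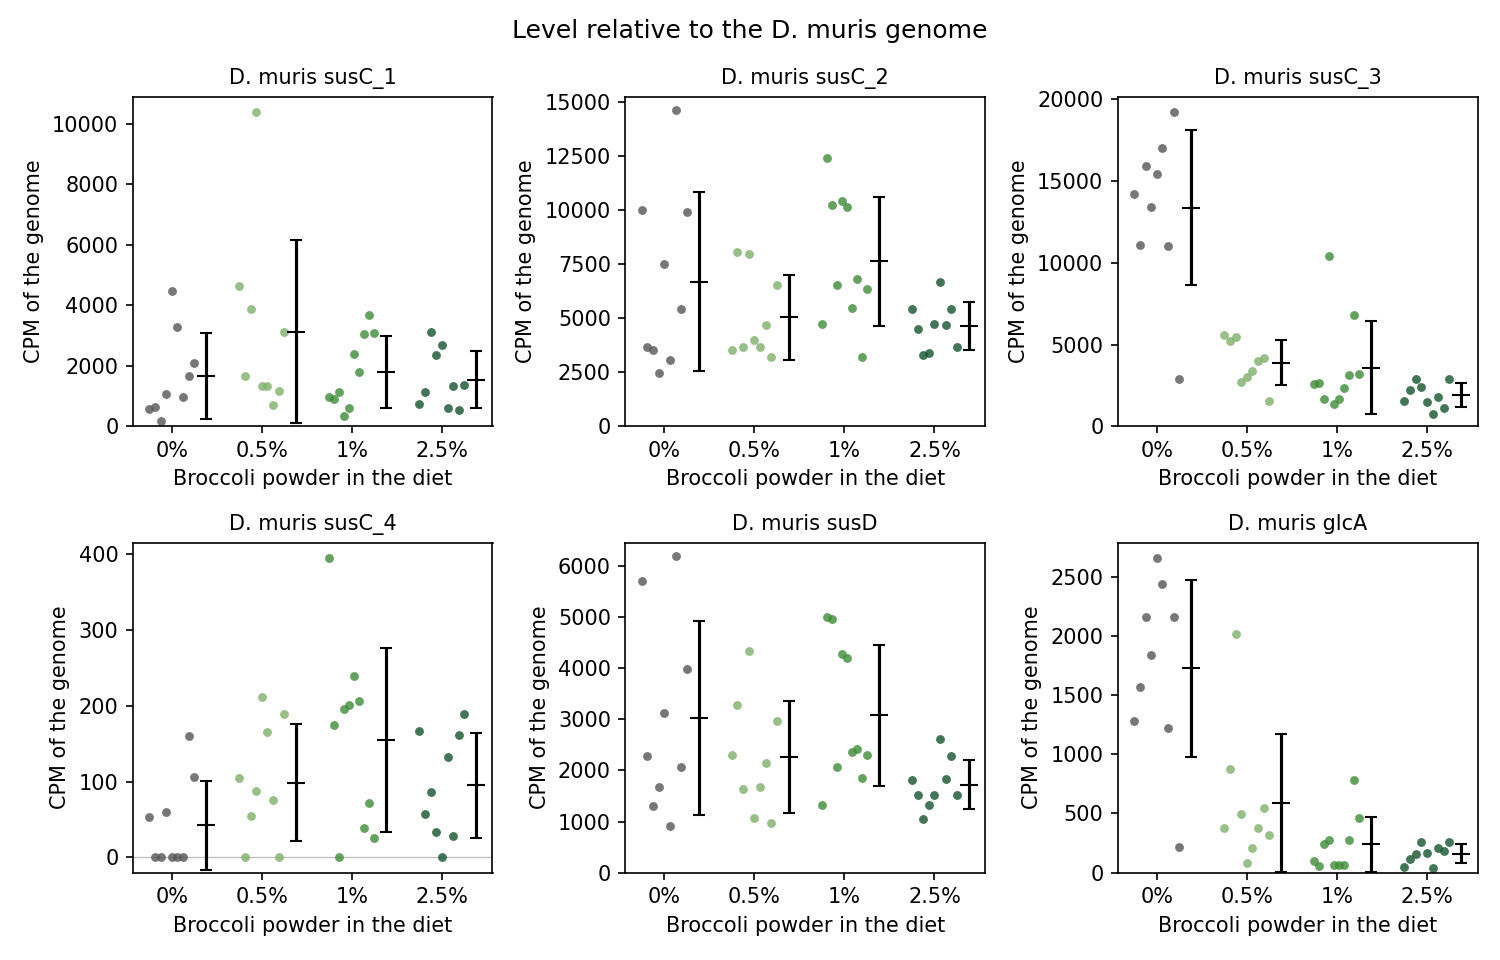
Level of each member relative to the D. muris genome (vertical axis, CPM) by percent of broccoli powder in the diet (horizontal axis), 1 point per library with at least 10000 D. muris counts, and mean ± SD in black. The 2.5% libraries of susC_3 lie between 755.4 and 2913 CPM and 8 of the 9 libraries at 0% lie at or above 11006, while susC_1, susC_2 and susD overlap broadly between diets.

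Relative to the genome, the transporter copies susC_1 and susC_2 and the gene susD were not lower than 0% at every dose. The lowest, median and highest CPM of susC_2 were 2466, 5427 and 14664 at 0%, 3200, 3985 and 8094 at 0.5%, 3208, 6680 and 12417 at 1%, and 3295, 4701 and 6666 at 2.5%. All 4 diets overlapped, and the 0% range enclosed those of the other diets. At 2.5% against 0%, the log2 difference of susC_2 was -0.53 ± 0.27 and missed the threshold (edgeR adjusted p = 0.246). At 0.5% it was -0.42 ± 0.27 and at 1% it was 0.18 ± 0.26 (edgeR adjusted p = 0.533 and 0.830). For 2.5% against 1% the log2 difference of susC_2 was -0.72 ± 0.26 (edgeR adjusted p = 0.326), near the -0.91 ± 0.31 of susC_3. All 9 susC_2 libraries at 2.5% lay below the 0% mean.

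The glycan-binding gene susD had its lowest, median and highest CPM at 912.5, 2285 and 6193 at 0%, 962.5, 2154 and 4347 at 0.5%, 1317, 2392 and 5002 at 1%, and 1058, 1526 and 2618 at 2.5%. Its group at 2.5% sat within the lower part of the 0% range. The log2 difference at 2.5% against 0% was -0.82 ± 0.30 (edgeR adjusted p = 0.0765), with a 95% interval from -1.42 to -0.23. The differences at 0.5% (-0.43 ± 0.30) and 1% (0.01 ± 0.29) also missed the threshold (edgeR adjusted p = 0.575 and 0.997). For 2.5% against 1% the log2 difference of susD was -0.84 ± 0.29 (edgeR adjusted p = 0.311), also near that of susC_3. All 9 susD libraries at 2.5% lay below the 0% mean.

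For susC_1 the lowest, median and highest CPM were 172.7, 1052 and 4486 at 0%, 718.1, 1652 and 10386 at 0.5%, 352.9, 1459 and 3671 at 1%, and 528.8, 1332 and 3104 at 2.5%. The groups overlapped throughout, and the highest value belonged to 0.5% replicate 5. The log2 difference at 0.5% was 0.86 ± 0.47, at 1% 0.06 ± 0.46 and at 2.5% -0.17 ± 0.47 (edgeR adjusted p = 0.409, 0.981 and 0.880). The 95% interval at 2.5% against 0% reached from -1.09 to 0.76. Between doses, susC_1 at 2.5% differed by -0.23 ± 0.45 from 1% and by -1.03 ± 0.46 from 0.5% (edgeR adjusted p = 0.917 and 0.403).

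Copy susC_4 had the fewest reads of all members, with 8 counts over the 10 libraries at 0%, 6 of which held none. It had 57 counts at 0.5%, 83 at 1% and 102 at 2.5%, with 3, 1 and 2 of 10 libraries at 0. It did not pass the low-count filter on the genome scale. With no filter its log2 difference was 1.45 ± 0.80 at 0.5%, 1.99 ± 0.78 at 1% and 1.37 ± 0.79 at 2.5%, and none passed the threshold (edgeR adjusted p = 0.376, 0.178 and 0.308).

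Thus 5 of the 6 members were tested relative to the genome, and 2 were called lower at each dose against 0%, susC_3 and glcA. The call of glcA at 0.5% was lost with no library minimum (-1.20), without libraries 76 to 81 (-1.23) and with the genome total as covariate (-1.29), and with that covariate also at 2.5%. Of all 1108 tested features of D. muris, 3.16% were called lower at 0.5%, 3.70% at 1% and 6.68% at 2.5%, and 4.96%, 6.23% and 10.6% in either direction. Since these contrasts put both genes forward, their calls are a description and not a test, and nothing is read from the counts. The median log2 difference over the 5 tested members was -0.43 at 0.5%, 0.01 at 1% and -0.82 at 2.5%, and over all tested features it was 0.06, 0.06 and 0.08. The choice of susC_3 and glcA lowers the members' median, and nothing is read from it either. Between doses, 0 members were called by edgeR in any of the 3 contrasts, in which 0.0% (1% against 0.5%), 0.451% (2.5% against 0.5%) and 0.271% (2.5% against 1%) of all features were called. At an unadjusted p under 0.05 these contrasts held 53, 122 and 107 features. DESeq2 called 0 of the members entered by name in these contrasts.

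The balance among the susC copies differed accordingly. Since susC_3 was chosen for its lower level with broccoli in these same libraries, the shares that include it are a description. In counts, which are not adjusted for gene length, susC_3 made up a median of 72.0% of all susC counts at 0% (19.3% to 81.1%). Its part was 39.3% at 0.5% (12.7% to 48.8%), 23.8% at 1% (10.7% to 59.5%) and 23.1% at 2.5% (9.25% to 35.5%). All 4 susC copies together took a median of 2.05% of the D. muris counts at 0%, 1.12% at 0.5%, 1.24% at 1% and 0.790% at 2.5%. Without susC_3, the other copies took 0.569% at 0%, 0.711% at 0.5%, 0.937% at 1% and 0.596% at 2.5%.

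Unscaled, the counts of susC_3 overlapped between all diets. Per library the lowest, median and highest counts were 82, 253.5 and 616 at 0%, 70, 133 and 386 at 0.5%, 70, 133.5 and 532 at 1%, and 80, 153 and 439 at 2.5%. Summed over the 10 libraries of each diet these were 2854, 1714, 1831 and 1744 counts. A fit to counts with no scaling gave log2 differences of -0.74 ± 0.48, -0.64 ± 0.48 and -0.71 ± 0.48 at 0.5%, 1% and 2.5%. At 2.5% the susC_3 difference relative to the genome was -2.81 in the 37 libraries above and -2.34 with all 40 libraries fitted. In unscaled counts, also of all 40 libraries, it was -0.71. The D. muris total over all libraries of a diet had a median of 91086.5 at 2.5% and 25672 at 0%.

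Unscaled glcA counts were also low throughout. Per library the lowest, median and highest were 6, 26 and 88 at 0%, 6, 20.5 and 37 at 0.5%, 2, 8.5 and 37 at 1%, and 2, 9 and 39 at 2.5%. The groups overlapped, and 9 of 10 libraries at 2.5% lay below the 0% mean of 37.3. With no scaling the log2 differences were -0.82 ± 0.57, -1.59 ± 0.58 and -1.35 ± 0.58 at 0.5%, 1% and 2.5%.

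The other members had more unscaled counts with broccoli. The median susC_2 count was 96.5 at 0%, 221.5 at 0.5%, 428.5 at 1% and 386.5 at 2.5%, and the median susD count was 45.5, 93, 178 and 135.5. For susC_1 the medians were 25.5, 82.5, 77.5 and 123. With no scaling susC_2 rose by a log2 difference of 1.57 ± 0.52 at 2.5%, susD by 1.36 ± 0.54 and susC_1 by 1.54 ± 0.56 (edgeR adjusted p = 0.00377, 0.0150 and 0.00809). Called higher at 2.5% were thus 3 of these 3, where 90.9% of the 1259 features tested without scaling were, and the median log2 difference of all those features was 2.18. At 1% the differences of susC_2, susD and susC_1 were 1.60 ± 0.52, 1.44 ± 0.54 and 1.28 ± 0.55 (edgeR adjusted p = 0.0156, 0.0243 and 0.0411). There 757 of the 1259 features were called higher. At 0.5% the differences were 0.57 ± 0.51, 0.55 ± 0.53 and 1.56 ± 0.56 and missed the threshold (edgeR adjusted p = 0.309, 0.343 and 0.0550). The copy susC_4 passed the low-count filter through the broccoli groups, where it was higher, so its unscaled differences of 2.65 ± 0.86 at 0.5%, where 8.18% of the features were called higher, and 3.48 ± 0.87 at 2.5% are a description.

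**Figure D2:**
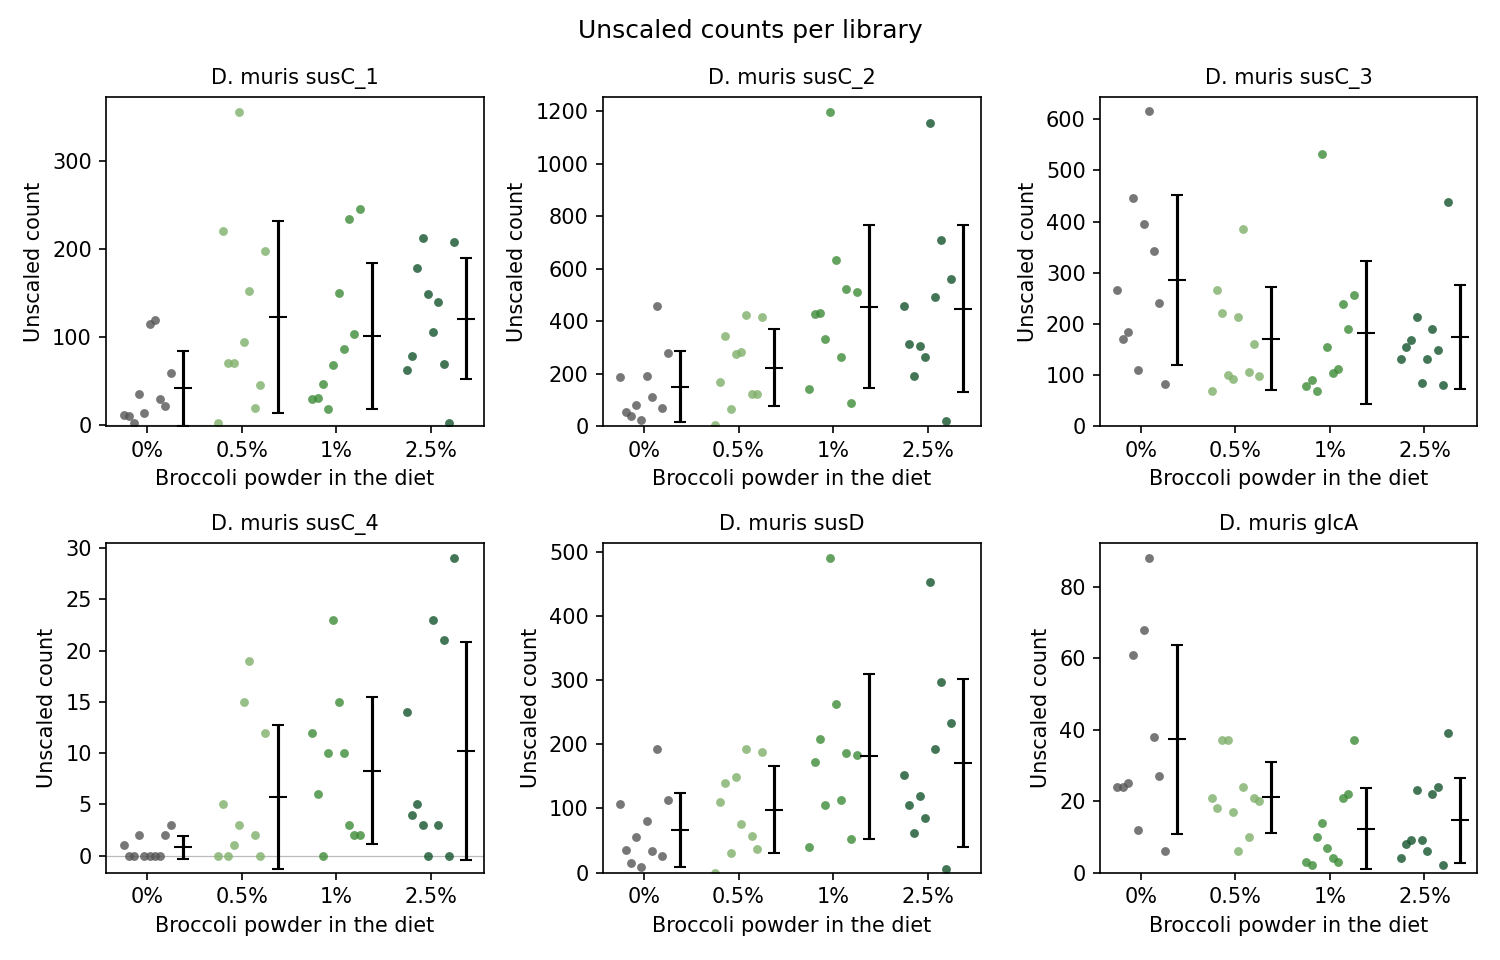
Unscaled counts of each member (vertical axis, reads per library) by percent of broccoli powder in the diet (horizontal axis), 1 point for each of the 10 libraries per diet, and mean ± SD in black. The counts of susC_3 and glcA overlap between all 4 diets, whereas the median of susC_2 is 428.5 at 1% and 96.5 at 0%.

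To place the members in all the bacterial RNA counted, each was also scaled to the total over the 6 tables, in all 40 libraries. On this scale a difference in the number of D. muris cells and a difference in RNA per cell cannot be told apart. Over all 1181 tested features of D. muris the median log2 difference was 0.66 at 0.5%, 1.30 at 1% and 1.52 at 2.5%. All 6 members were tested here. The copy susC_4 passed the low-count filter through the broccoli groups, where it was higher, and so its rise was not independent of the filter.

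At 2.5% against 0%, susC_2 was higher on the 6-table scale by a log2 difference of 1.22 ± 0.50 (edgeR adjusted p = 0.0295). Of susC_1, susC_2 and susD, only susC_2 was called higher there, where 67.4% of all features were. At 1%, susC_2 (1.70 ± 0.51) and susD (1.43 ± 0.54) were called higher (edgeR adjusted p = 0.0162 and 0.0368), where 38.7% of all features were. The copy susC_1 missed the threshold at 1% (1.10 ± 0.55, edgeR adjusted p = 0.0834). Whether these members differ from all features in this was not tested. The differences of susC_4, 2.82 ± 0.87 at 2.5% and 3.30 ± 0.88 at 1%, are a description. With no low-count filter, susC_4 differed by 2.79 ± 0.89 at 2.5% and by 3.29 ± 0.90 at 1% (edgeR adjusted p = 0.0103 and 0.0123). Neither susC_1 at 2.5% (1.08 ± 0.55, edgeR adjusted p = 0.0685) nor susD at 2.5% (0.87 ± 0.53, edgeR adjusted p = 0.123) passed. In the libraries with at least 10000 D. muris counts susC_1 did pass at 2.5%, at 1.16 (edgeR adjusted p = 0.0345, and from 0.00809 to 0.0860 over its 5 alternatives). At 0.5%, 0 members were called, where 0.423% of the features were called higher and 0.0% lower. Among the members entered by name, susC_1 had the smallest adjusted p there (1.55 ± 0.56, edgeR adjusted p = 0.155). The difference of susC_4 was 1.83 ± 0.88, and 1.80 ± 0.89 with no low-count filter (edgeR adjusted p = 0.274 without the filter). At an unadjusted p under 0.05 the contrast held 178 features.

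On the same scale susC_3 and glcA stood on the other side of 0 from the median feature. The susC_3 level had a median of 324.0 CPM of the 6-table total at 0%, 138.3 at 0.5%, 200.3 at 1% and 168.9 at 2.5%, and its log2 difference was -1.09 ± 0.50, -0.82 ± 0.49 and -1.29 ± 0.50. The 2.5% libraries ran from 89.8 to 338.3 CPM of that total, against 100.6 to 1407 at 0%, and overlapped them. For glcA the medians were 45.2, 27.7, 13.3 and 10.1 CPM of that total, with log2 differences of -1.18 ± 0.56, -1.97 ± 0.57 and -2.17 ± 0.57. Called lower among all features were 0.169% at 1%, where glcA was 1 of the 2 features, and 0.762% at 2.5%, where both genes were among the 9. Both genes were put forward for this direction, and nothing is read from these counts.

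**Figure D3:**
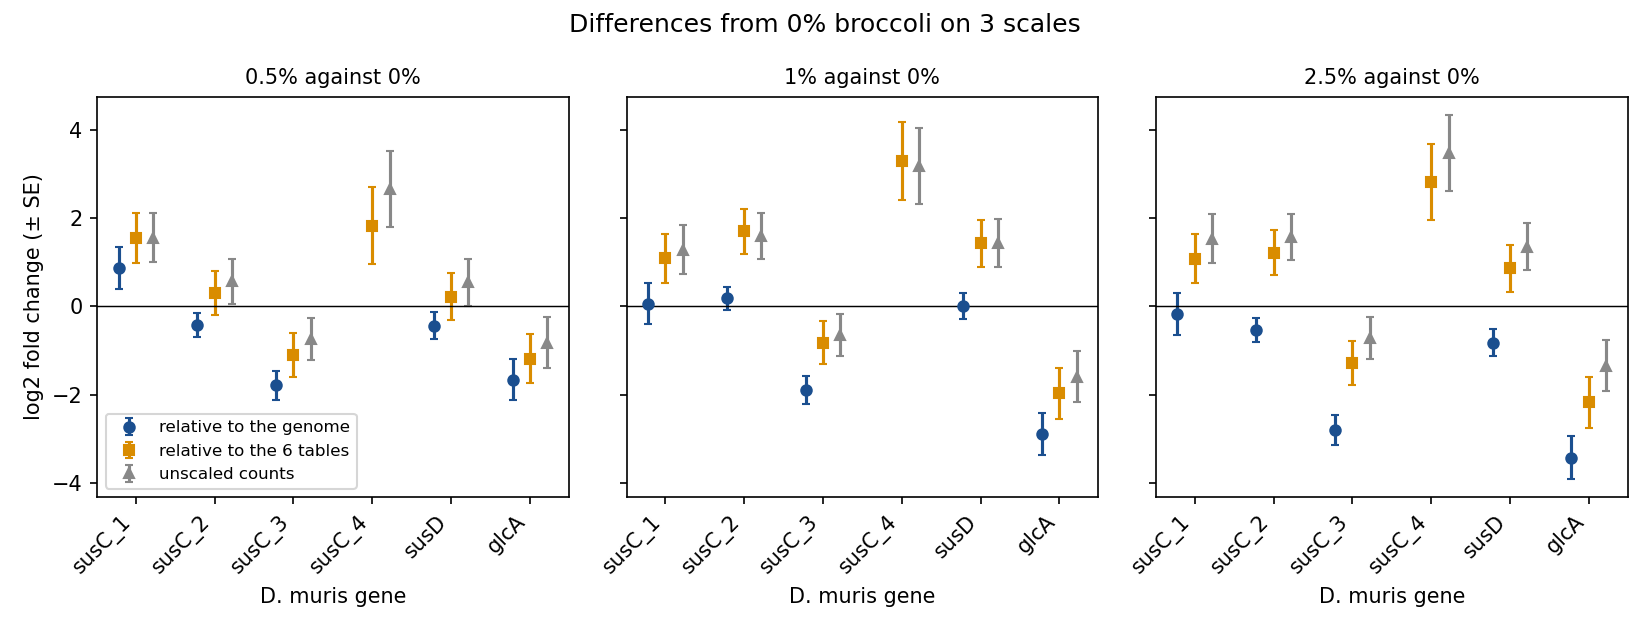
Log2 difference from 0% broccoli (vertical axis, ± SE) of each member at 0.5%, 1% and 2.5% (panels, left to right), relative to the genome, relative to the 6 tables and from unscaled counts. The values of susC_3 and glcA lie below 0 on all 3 scales, while susC_2 at 2.5% lies at -0.53 relative to the genome and at 1.22 relative to the 6 tables. Genome values are from the 37 libraries with at least 10000 D. muris counts, and 6-table and unscaled values from all 40 libraries. A missing genome value for susC_4 means that it did not pass the low-count filter.

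Likeness was measured over the 37 libraries. The 3 named features most like susC_3 were glcA, rcsC_2 and yhaZ_2, by Pearson correlations of log2 CPM of 0.858, 0.827 and 0.774. For glcA they were susC_3, rcsC_2 and yhaZ_2, at 0.858, 0.775 and 0.739. The gene rcsC codes in Escherichia coli for a sensor histidine kinase. Its copy rcsC_2 had medians of 6719 CPM at 0%, 2833 at 0.5%, 2379 at 1% and 1873 at 2.5%, and yhaZ_2 had 640.2, 233.4, 122.2 and 85.7. Both susC_3 and glcA were chosen for being lower with broccoli, which by itself gives them a correlation across diets. These correlations also run over libraries that share diet, depth and genome total, and they say nothing of shared control.

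Levels of susD and susC_2 rose and fell together over the libraries of all diets, and no correlation was computed within a diet. Over the 37 libraries their log2 CPM had a Pearson correlation of 0.895, and the next named feature most like susC_2 was era at 0.507. There were 0.415 susD reads per susC_2 read at 0% in the median library (0.297 to 0.683), 0.452 at 0.5% (0.270 to 0.651), 0.406 at 1% (0.278 to 0.578) and 0.389 at 2.5% (0.321 to 0.419). This ratio overlapped between all diets. Its range was narrowest at 2.5%, where the median D. muris total was highest, so diet and depth cannot be told apart for this spread. By contrast, susC_2 and susC_3 had a correlation of -0.20, susC_1 and susC_3 of -0.05, and susC_1 and susC_2 of -0.08. Whether members lie next to each other in the genome was not analysed here.

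**Figure D4:**
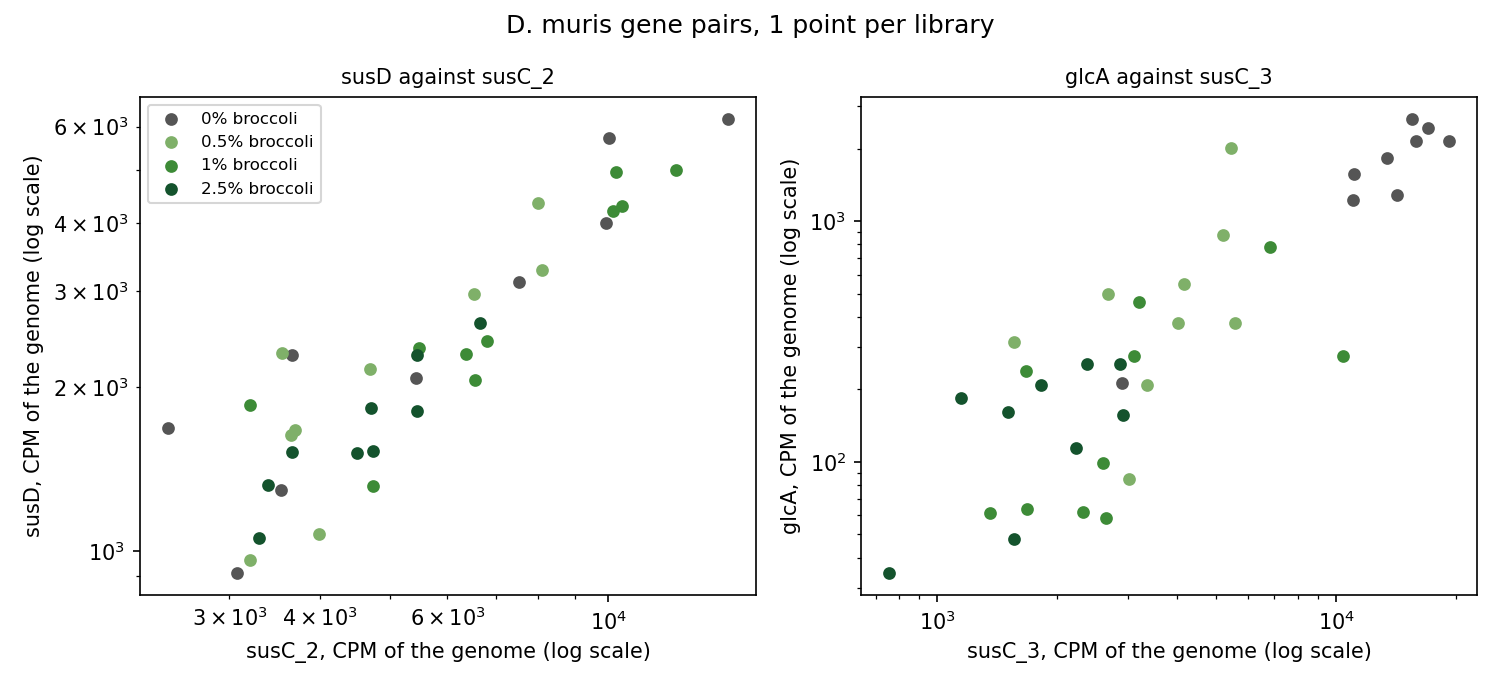
CPM of susD against susC_2 (left) and of glcA against susC_3 (right), both axes logarithmic, 1 point per library coloured by diet. In the left panel all diets lie along 1 band, and in the right panel 8 of the 9 libraries at 0% form the upper right group, at or above 11006 CPM of susC_3.

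The ratio of susC_3 to susC_2 reads within a library does not depend on the scaling. Its lowest, median and highest values were 0.292, 3.04 and 5.55 at 0%, 0.239, 0.855 and 1.57 at 0.5%, 0.130, 0.440 and 2.12 at 1%, and 0.113, 0.387 and 0.884 at 2.5%. In the median library susC_3 thus had more reads than susC_2 at 0% and fewer at each broccoli dose, with overlap between diets. Because susC_3 was chosen for its lower level with broccoli in these same libraries, this ratio is a description and no test. The glcA to susC_3 ratio had medians of 0.136 at 0%, 0.131 at 0.5%, 0.0416 at 1% and 0.0888 at 2.5%, with overlap. Within a diet it varied widely, from 0.0280 to 0.370 at 0.5% and from 0.0220 to 0.144 at 1%.

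The 3 libraries under 10000 D. muris counts stayed out of the levels above. In 0% replicate 5, susC_3 had 110 of 6832 counts, or 16101 CPM of the genome before TMM adjustment. In 0.5% replicate 1 it had 70 of 3108, or 22523 CPM, and in 2.5% replicate 9 it had 80 of 5860, or 13652 CPM. Both broccoli libraries thus lay in or above the range of the 0% libraries on this measure, which ran from 2869 to 16101. In the same libraries glcA had 12 counts (1756 CPM) in 0% replicate 5, 21 (6757 CPM) in 0.5% replicate 1 and 2 (341.3 CPM) in 2.5% replicate 9. The 0.5% value lay above every 0% library, which ran from 209.9 to 2312 CPM. With all 40 libraries fitted, the log2 difference of susC_3 was -1.45 at 0.5% and -2.34 at 2.5%. Without the 0% replicate 10 that stood apart, it was -1.93 at 0.5% and -2.93 at 2.5%. Libraries 76 to 81, numbered apart from the rest, belonged to the broccoli groups alone, 4 of them to 0.5%. Without them the difference was -1.57 at 0.5% and -2.85 at 2.5%.

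Other genes of glycan uptake and breakdown in D. muris were looked up from 4 lists. Among TonB-dependent receptors outside the SusC family, 5 features were found, and 1 of the 4 tested rose at 2.5% against 0% and 0 fell, where 3.88% of all features were called higher and 6.68% lower. This was btuB_4, a copy named for the vitamin B12 receptor, at 519.7 ± 195 CPM at 2.5% and 244.2 ± 149.2 CPM at 0% (SD, n = 9 each). Its log2 difference was 1.10 ± 0.35 (edgeR adjusted p = 0.0354), and without 0% replicate 10 the call was lost (edgeR adjusted p = 0.0589). It was also lost with no library minimum and with the genome total as covariate, and over 7 alternatives, DESeq2 among them, the adjusted p ran from 0.0250 to 0.573. The list's median log2 difference was -0.05, and 0 features were named for the TonB complex itself.

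Of 5 tested genes for starch and other alpha-glucans, 0 passed in either direction, with a median log2 difference of 0.10. They included susB, at 0.40 ± 0.38, the pullulanase gene pulA at -0.12 ± 0.29 and the glycogen phosphorylase gene glgP at 0.45 ± 0.31 (edgeR adjusted p = 0.583, 0.845 and 0.422). Of 9 tested genes for other glycan-degrading enzymes, 0 passed, with a range from -0.56 to 0.74. The beta-galactosidase gene lacZ stood at 0.68 ± 0.30 and the polygalacturonase gene pehX at -0.40 ± 0.28 (edgeR adjusted p = 0.148 and 0.426).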

How the data were processed

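The authors deposited 6 tables of raw counts per feature, 1 per bacterial genome, for 40 cecal RNA libraries. Not given in the sources used here are the aligner, the counting program, the genome builds and the handling of reads shared between gene copies, so the separate counts of susC copies are uncertain. Treatment labels set the groups. Replicates were numbered in sample order, which pairs nothing. Members, gene lists and tests were chosen with earlier results of these data known.

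D. muris was fitted in edgeR 4.0.16 (R 4.3.3) with its quasi-likelihood test, two-sided, on all 4 diets in 1 fit. Libraries with at least 10000 D. muris counts (37 of 40), filterByExpr and TMM factors were used. Benjamini-Hochberg adjustment ran over all tested features within a contrast, at a threshold of 0.05. A second fit of all 40 libraries used the total over the 6 tables as library size and no TMM factors. Standard errors were derived from each log2 difference and its F value, and 95% intervals from those. Correlations used log2(CPM + 1). The code was tested on simulated data. DESeq2 1.42.0 and other settings served as alternatives. D. muris totals ranged from 3108 to 172785 counts per library. Of 180 pairs of libraries within groups, 0 were identical, and the smallest chi-square per degree of freedom over D. muris features was 3.54. X. muris was not fitted, since it held 0 members.

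Named genes were all members, the called genes of the 4 lists at 2.5% (up to 4 per list by smallest p) and the 3 named features most like susC_3 and glcA. The likeness of susC_2, and the list genes that were not called, were added after their values had been seen.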

Additional observations from a re-analysis of the deposited data

Results flagged for a closer look

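Levels of the 6 members were checked for a single library far from the rest in 24 groups, of which about 1 in 20 is expected by chance, and 3 stood out. For susC_3, 0% replicate 10 had 2898 CPM, and the nearest library of its group had 11006. For susC_1, 0.5% replicate 5 had 10386 CPM, and the nearest library had 4638. For glcA, 0.5% replicate 4 had 2017 CPM, and the nearest library had 873.1.

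The Alistipes table, which the comparisons above do not use, holds 1 feature named susC. It had 0 counts at 0%, 0 at 0.5%, 5 at 1% and 129 over 8 of 10 libraries at 2.5%. All Alistipes features together had 1620 counts at 0%, 4667 at 0.5%, 11846 at 1% and 161531 at 2.5%. The difference in susC was not tested apart from that of the genome.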

How the results depend on the processing

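No paired analysis was possible because the labels carry no replicate numbers. Groups kept 9 or 10 libraries, so none was small enough to leave out each in turn. The X. muris alternatives were not run, for want of members, and with at least 50000 D. muris counts 0 libraries at 0% remained, so only contrasts between doses were fitted. Members called at 0.5% against 0% numbered 2, susC_3 and glcA, whose calls are no test because both were chosen for this level. The number was 1 (susC_3) with no library minimum and without libraries 76 to 81, which are numbered apart from the rest. It was also 1 (susC_3) when log2 of the genome total entered as covariate. That covariate also left 1 (susC_3) at 2.5% against 0%, where glcA was -2.24. DESeq2 counted 1 at 2.5% against 0.5%, glcA, which was chosen for this level. With no scaling, 1 was counted at 0.5% against 0%, where the 6-table scale called 0. That member was susC_4, which passed the low-count filter through the broccoli groups. The cause of these shifts was not tested. Direction turned only in differences that were not called. With at least 50000 counts susC_3 at 1% against 0.5% was 0.25 and susC_2 at 2.5% against 0.5% was 0.050. Without libraries 76 to 81 susC_1 at 1% against 0% was -0.043. With the covariate susC_2 and susD at 1% against 0% were -0.035 and -0.18, and susC_1 at 2.5% against 0% was 0.20. Over all D. muris features, 55 calls at 0.5% became 18 without libraries 76 to 81, 21 with the covariate and 36 with no minimum. The 117 at 2.5% became 22 with the covariate and 180 with no low-count filter, and the 69 at 1% became 33 with the covariate. Leaving out 0% replicate 10 was chosen after seeing the data. The susC_3 difference at 2.5% against 0% stayed between -2.93 and -2.19 over 7 alternatives. Counts of susC_4 and glcA are too few for small differences to be seen.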
